A study of Macaca fascicularis with 6 samples.

Results

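The collagen chain genes were taken as the probe sets whose design gene name, or gene symbol where a probe set had no design name, read COL, digits, A, digits with nothing after. This rule found 39 genes of the 21494 genes that probe sets were assigned to, and 103 probe sets of 52706. Signals came from Affymetrix Rhesus Macaque Genome Arrays, 1 per animal, hybridized with RNA of the left ventricular free wall of cynomolgus monkeys (Macaca fascicularis). The arrays covered 2 hearts with chronic atrioventricular block (animals 2 and 8), taken 8 months after its onset, and 4 intact, non-operated hearts (animals 11, 12, 13 and 14). All animals were adult males of 4 to 6 years.

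The block was made by ablation of the atrioventricular node. Animals 2 and 8 had also received repeated oral dl-sotalol (a drug that blocks β-adrenoceptors and lengthens the QT interval), as well as vehicle and moxifloxacin, and were chosen because they had developed torsade de pointes most often. The block, the drugs and the arrhythmia therefore cannot be told apart in the comparison. The specimens were transmural and held all cell types of the ventricular wall, so that fewer cells of a type and less RNA per cell cannot be told apart either.

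Collagens are proteins of 3 chains wound into a triple helix, and each chain has its own gene. Fibrillar collagens, mainly types I and III in the myocardium, form the fibers that hold myocytes and bundles together and that accumulate in interstitial fibrosis, where fibroblasts are their main source. Type IV collagen forms the sheet-like network of the basement membrane around cardiac myocytes and vessels, and types XV and XVIII sit at the border of that membrane. The other types include beaded filaments (type VI), short-chain networks (type VIII), chains that decorate fibril surfaces (types IX, XII, XIV, XVI and XXI) and transmembrane collagens.

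Signals are fluorescence intensities on a linear scale, brought to a common 2% trimmed mean on every array. Before this step the trimmed mean of the deposited signals was 54.6 and 73.5 in animals 2 and 8, and between 75.1 and 88.2 in the intact hearts. A gene was represented by its brightest probe set, the one with the highest mean signal over the 6 arrays. Signals of different probe sets depend on their probes, so levels were compared between animals and not between genes. Between 36.0% and 39.7% of probe sets were called Present, meaning detected above background, and 10 of 10 cardiomyocyte markers were Present on all arrays. For the GAPDH controls, the signal at the 3' end was divided by that at the 5' end, a ratio that is higher where RNA copies are shorter. It was 5.05 and 3.05 in animals 2 and 8, against 2.65, 2.17, 2.17 and 2.29 in animals 11, 12, 13 and 14. The ratios of the hearts with block lay above those of all intact hearts (exact permutation test, two-sided p = 0.0667, and a lower p is not possible with 2 and 4 arrays). For the ACTB controls the ratio was 11.6 and 8.98 in animals 2 and 8, against 8.94, 8.03, 7.85 and 10.9 in the intact hearts. There the groups overlapped, with animal 8 below animal 14 (exact permutation test, two-sided p = 0.333).

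Of the 39 collagen genes, 27 had a Present call on 2 or more of the 6 arrays and were tested, and 19 of these were Present on all 6. None of the 27 differed between the hearts with block and the intact hearts at an adjusted p below 0.05 (limma, two-sided, Benjamini-Hochberg adjustment over 22577 probe sets). Over all probe sets 0.00443% were called higher and 0.0177% lower by the same rule, so that few calls were made anywhere on the array. At an unadjusted limma p below 0.05, 1 collagen gene was higher with block (COL4A6) and 1 was lower (COL27A1), against 3.62% of all probe sets that were higher and 4.62% that were lower. The adjusted p of the 27 genes ran between 0.541 and 0.987.

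The collagen genes as a whole were centred near no difference. Their median log2 difference, block minus intact, was 0.041 over the 27 genes, with 14 genes above 0 and 13 below (49.6% of all probe sets were above 0), and the median of all probe sets tested was -0.0033. The median was 0.11 for the 9 fibrillar genes, 0.11 for the 8 basement membrane genes and -0.12 for the 10 others. Each of these changed sign with 1 animal left out. The fibrillar median was 0.33 without animal 2 and -0.17 without animal 8, the basement membrane median was 0.35 and -0.041, and that of the others was 0.14 and -0.17. Among the 19 genes Present on all arrays, 17 differed by less than 1.5-fold, and their standard errors lay between 0.23 and 0.51 on the log2 scale. The 95% intervals of these genes reached down to 0.349-fold and up to 3.14-fold. The interval included 0 in 25 of the 27 genes, and the comparison of 2 with 4 hearts does not show that the levels were alike. The median of the 27 genes was 0.33 without animal 2 and -0.17 without animal 8, so that its sign rested on which heart with block was kept.

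**Figure D1:**
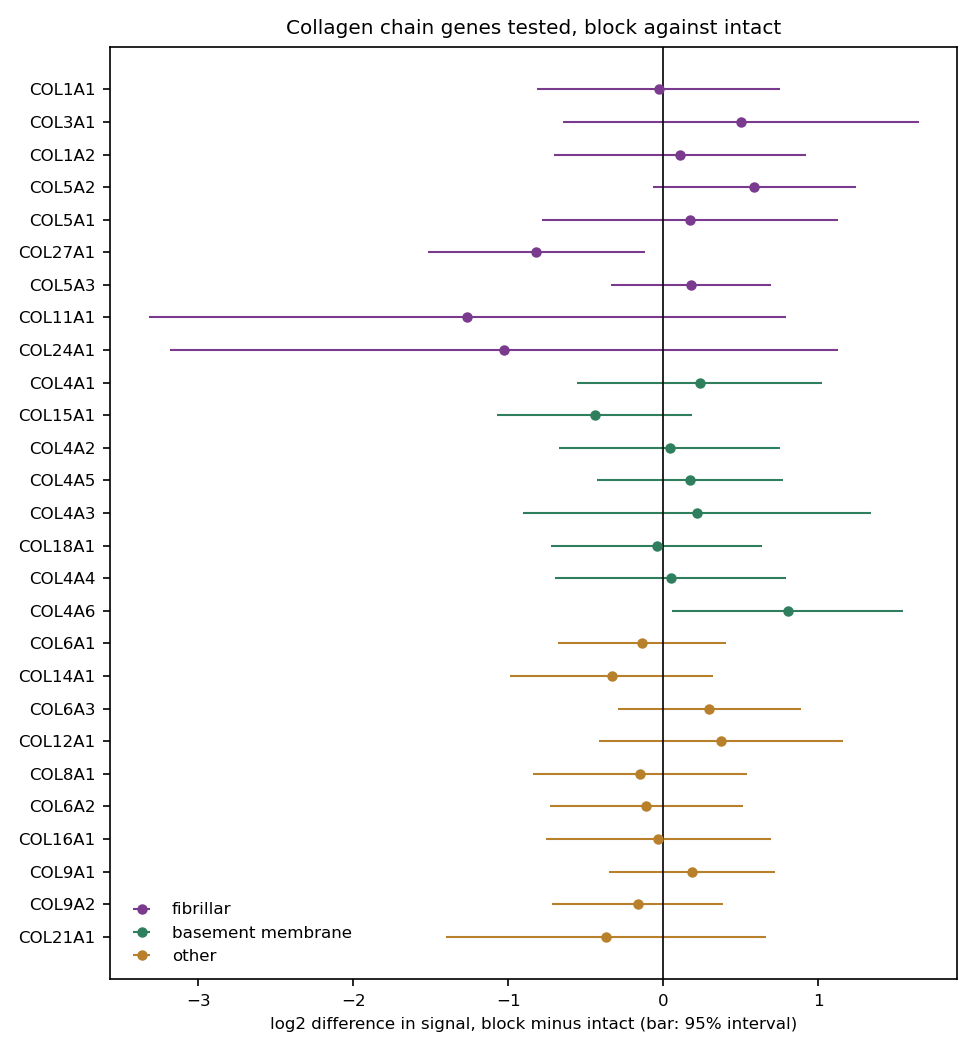
Log2 difference in scaled signal, block minus intact, for the 27 collagen genes tested (horizontal axis), grouped by class and ordered by brightness within a class; points are limma estimates and bars their 95% intervals. The bars of 25 genes cross 0, and those of COL27A1 (below 0) and COL4A6 (above 0) do not.

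Type I collagen, the most abundant collagen of the ventricular wall, was measured through both of its chains. COL1A1 (chr16:34423905-34424068, minus strand, rhesus build Mmul_051212 as in the array annotation) had scaled signals of 3032 and 4355 in animals 2 and 8, against 2556, 6468, 3988 and 2864 in animals 11, 12, 13 and 14. Both hearts with block thus lay inside the range of the intact hearts, which spanned 2.53-fold. The group means were 3693 ± 936 with block (SD, n = 2) and 3969 ± 1776 in intact hearts (SD, n = 4), and the log2 difference was -0.029 (SE 0.35, limma adjusted p = 0.987). COL1A2 (chr3:122826207-122828306, minus strand), the partner chain, had 1383 and 2044 with block, against 1029, 2426, 2088 and 1132 in intact hearts. Its log2 difference was 0.11 (SE 0.36, adjusted p = 0.950). Both chains ran low in animals 11 and 14 and high in animals 12 and 13, and animal 8 was above animal 2 in both.

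Type III collagen, a single-chain type that shares fibrils with type I, gave the widest spread among the bright genes. COL3A1 (chr12:52653484-52654102, plus strand) had 1973 and 3317 with block, against 1357, 3792, 2347 and 880 in intact hearts. Animal 12 was thus 4.31 times as high as animal 14 within the intact group, and both hearts with block again fell between these. The log2 difference was 0.50 (SE 0.51, limma adjusted p = 0.820), and its 95% interval ran from -0.64 to 1.65.

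Type V collagen sits in the core of type I fibrils and starts their assembly. COL5A2, which lies tail to tail with COL3A1 on the opposite strand (chr12:52670753-52671588), had 421 and 513 with block, against 254, 434, 383 and 216 in intact hearts. Animal 8 was above all intact hearts and animal 2 was below animal 12 alone. The log2 difference of 0.59 (SE 0.29) was the largest positive one among the 19 genes Present on all arrays and had an unadjusted p of 0.073 and an adjusted p of 0.640 (limma). The other type V chains, COL5A1 and COL5A3, differed by 0.17 and 0.18 on the log2 scale (adjusted p = 0.934 and 0.864, same fit).

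The remaining fibrillar genes are minor chains. COL27A1, a fibrillar collagen best known from cartilage (chr15:21815986-21816220, minus strand), had 77.5 and 83.2 with block, against 110, 99.9, 186 and 197 in intact hearts. Both hearts with block were below all intact hearts, and the 2 values with block were close together. The log2 difference was -0.82 (SE 0.31, 95% interval -1.52 to -0.12), or 0.567-fold, with an unadjusted p of 0.027 and an adjusted p of 0.541 (limma). It was the only one of the 27 genes with both hearts with block below all intact hearts, against 9.48% of all probe sets tested. Within the intact group, animals 13 and 14 were the high ones in COL27A1.

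A difference of 2-fold or more was found in 0 genes upwards and in 2 downwards, COL11A1 and COL24A1, against 2.67% and 2.83% of all probe sets. Both are dim. COL11A1, a chain of the fibrils of cartilage and of developing tissue, had 1.61 and 14.7 with block, against 5.99, 12.3, 17.1 and 14.98 in intact hearts, and was Present in 1 heart with block and in 2 intact hearts. COL24A1 had 1.39 and 8.79 with block, against 4.21, 9.02, 11.1 and 6.15 in intact hearts. It had no Present call with block and 2 in intact hearts, so its level with block is not known. In both genes the low value was that of animal 2 alone. The log2 difference was -1.26 for COL11A1 (SE 0.91, limma adjusted p = 0.752) and -1.03 for COL24A1 (SE 0.95, adjusted p = 0.803). Without animal 2 it was 0.33 for COL11A1 and 0.30 for COL24A1. COL24A1 was Absent in both hearts with block, so neither of its differences gives a level there. Its value in animal 2 came from a deposited signal of 1, the smallest on the arrays.

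Basement membrane chains were led in brightness by COL4A1 and COL4A2, which form the type IV trimer found in nearly all basement membranes. Their genes lie head to head in the genome, COL4A1 on the minus strand (chr17:90236985-90237674) and COL4A2 on the plus strand (chr17:90587579-90588352). COL4A1 had 1943 and 2993 with block, against 1541, 3016, 2803 and 1351 in intact hearts. COL4A2 had 687 and 1252 with block, against 645, 1250, 1067 and 767 in intact hearts. The pair kept the order of the type I chains, with animals 12 and 13 high, animals 11 and 14 low and animal 8 above animal 2. The log2 differences were 0.24 for COL4A1 (SE 0.35, limma adjusted p = 0.883) and 0.041 for COL4A2 (SE 0.31, adjusted p = 0.979).

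COL4A5 and COL4A6 form another such pair on the X chromosome and can join in 1 trimer, known from smooth muscle and other basement membranes. COL4A5 (chrX:107446224-107446902, plus strand) had 94.1 and 121 with block, against 109, 116, 67.1 and 94.2 in intact hearts, with a log2 difference of 0.17 (SE 0.26, limma adjusted p = 0.887). COL4A6 (chrX:106883103-106883666, minus strand) had 67.5 and 35.4 with block, against 26.7, 32.4, 24.1 and 29.5 in intact hearts. Animals 2 and 8 both exceeded every intact heart, though animal 8 only narrowly so. It was the only one of the 27 genes in which this was found, against 8.61% of all probe sets tested.

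The log2 difference of COL4A6 was 0.80 (SE 0.33, 95% interval 0.060 to 1.55), or 1.75-fold, with an unadjusted p of 0.037 and an adjusted p of 0.575 (limma). It was 0.34 without animal 2 and 1.27 without animal 8. The gene had a Present call in animals 2 and 8 and in 2 intact hearts. The tested COL4A6 probe set nearest the 3' end of the gene had 16.9 and 16.4 with block, against 9.94, 26.1, 12.6 and 18.7 in intact hearts, and a log2 difference of 0.080.

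By their brightest probe sets, all 6 type IV chains had a log2 difference above 0, against 49.6% of all probe sets tested. Their median was 0.20, and none passed the test. On the deposited signals without scaling, where the median of all probe sets was -0.37, only 1 of the 6 was above 0, but all 6 stayed above that median. With scaled signals and without animal 8, 3 of the 6 were above 0. COL4A3 and COL4A4, chains known from the glomerulus, lung and inner ear, differed by 0.22 and 0.048 (limma adjusted p = 0.927 and 0.977). A further tested COL4A4 probe set, also Present on all arrays, was at -0.35 (same fit, adjusted p = 0.824). The sign of COL4A4 thus depended on the probe set.

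COL15A1, which lines the outer side of basement membranes in muscle and vessels (chr15:37158747-37159407, minus strand), had 783 and 1061 with block, against 1098, 1811, 1353 and 873 in intact hearts. Animal 2 was below all intact hearts and animal 8 lay between animals 11 and 14. The log2 difference was -0.44 (SE 0.28, limma adjusted p = 0.712), the largest negative one among basement membrane genes. COL18A1, its relative and the source of the fragment endostatin, differed by -0.043 (adjusted p = 0.978).

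Among the other types, the 3 chains of type VI collagen, which forms beaded filaments around cells and is mutated in human muscular dystrophies, were all Present on every array. COL6A1 (chr3:775372-775855, minus strand) had 771 and 788 with block, against 948, 1197, 715 and 666 in intact hearts, so that the hearts with block were close to each other and inside the intact range. Its neighbor COL6A2 had a log2 difference of -0.11, and that of COL6A1 was -0.14 (limma adjusted p = 0.937 and 0.903). COL6A3 (chr12:101179837-101180561, minus strand) had 436 and 568 with block, against 347, 596, 410 and 319 in intact hearts, with a log2 difference of 0.30 (SE 0.26, adjusted p = 0.794).

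Types XII and XIV are related chains that coat the surface of type I fibrils. COL12A1 (chr4:71220331-71221048, minus strand) had 391 and 543 with block, against 223, 600, 376 and 315 in intact hearts, and a log2 difference of 0.37 (SE 0.35, limma adjusted p = 0.803). COL14A1 (chr8:122891979-122892730, plus strand) had 344 and 675 with block, against 532, 825, 578 and 532 in intact hearts, and a log2 difference of -0.33 (SE 0.29, adjusted p = 0.792). The hearts with block overlapped with the intact hearts in both genes, and in COL14A1 they were farther apart from each other (1.96-fold) than the intact hearts were (1.55-fold).

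The 6 further genes of this class that were tested (COL8A1, COL9A1, COL9A2, COL16A1, COL21A1 and COL6A2) had log2 differences between -0.37 (COL21A1) and 0.19 (COL9A1), and their groups overlapped. COL8A1, a short-chain collagen of vessel walls, had 204 and 340 with block, against 196, 282, 387 and 340 in intact hearts. COL9A1 and COL9A2 encode type IX chains, which are best known from cartilage. COL9A1 had a Present call in animals 2 and 8 and in 1 intact heart, with signals of 59.2 and 88.8 with block, against 59.1, 64.6, 67.6 and 64.0 in intact hearts.

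**Figure D2:**
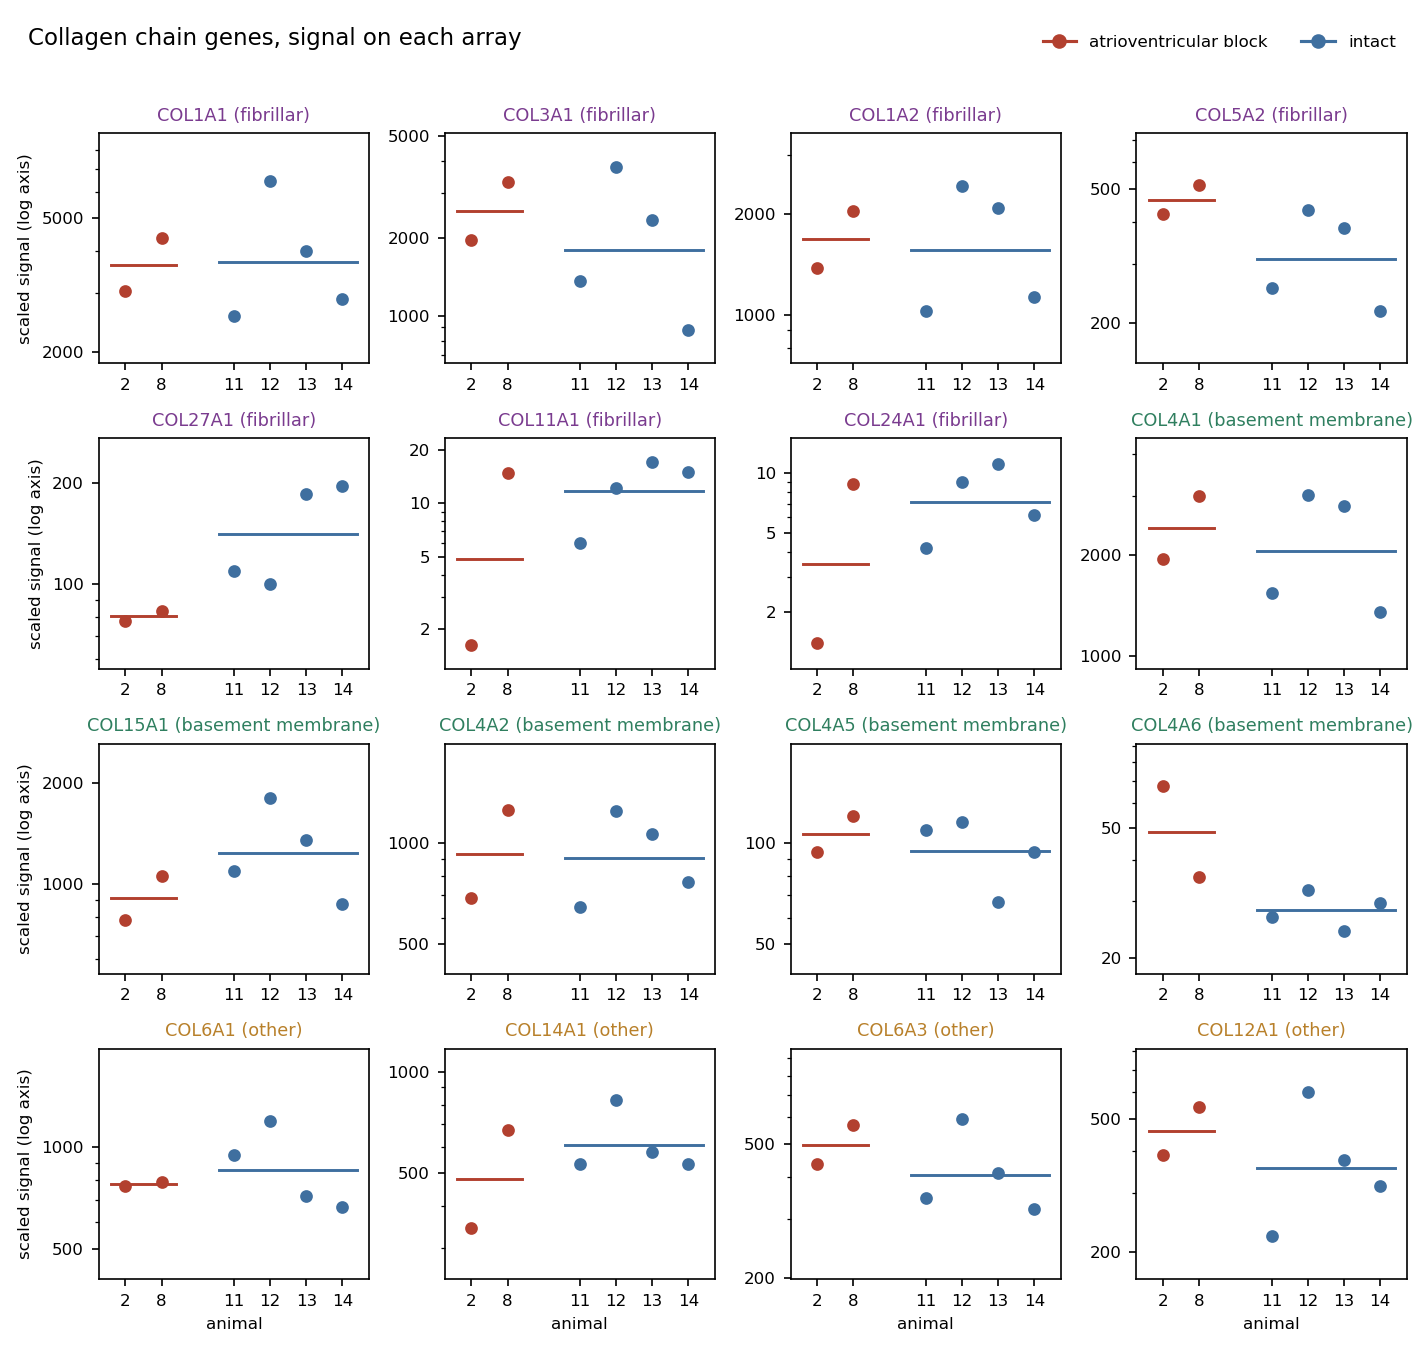
Scaled signal (log axis) of 16 collagen genes on each array, with animals 2 and 8 (block) left of animals 11 to 14 (intact); lines are means of log2 signals in each group. COL27A1 and COL4A6 are the panels in which the groups do not overlap, and in most other panels animals 12 and 8 stand high within their groups.

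The other 12 collagen genes were not tested because they were Present on fewer than 2 arrays. They were COL2A1 and COL11A2 of the fibrillar class, known from cartilage, and COL7A1, COL8A2, COL9A3, COL10A1, COL13A1, COL17A1, COL19A1, COL22A1, COL23A1 and COL25A1. Their brightest probe sets had scaled signals between 0.978 and 62.7. COL10A1, the collagen of hypertrophic cartilage, was Present on 1 intact array, and the other 11 had no Present call. A low signal of these probe sets gives no level for the gene. The cynomolgus annotation names 43 genes of this form, of which 38 are among the 39 on the array. COL13A1 was not found there by its symbol.

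The spread of the collagen genes between intact hearts was wide. The highest of the 4 intact hearts was a median of 2.01 times the lowest over the 27 collagen genes, against 1.59 times over all probe sets tested, and at least 2 times in 14 genes. The SD of log2 signals between intact hearts had a median of 0.62 over fibrillar genes, 0.39 over basement membrane genes and 0.41 over the others, against 0.30 over all probe sets tested. In 26 of the 27 genes the log2 range of the intact hearts was wider than the log2 difference between the groups. The share of all probe sets for which this holds was not taken, so the count does not set the collagens apart. In 13 of the 27 genes both hearts with block lay inside the intact range, against 34.1% of all probe sets.

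The same animals were high or low in many of these genes. Animal 12 was the highest of the intact hearts in 21 of 27 collagen genes, against 23.8% of all probe sets tested, among them 8 of 8 basement membrane genes, 8 of 10 others and 5 of 9 fibrillar genes. Animals 12 and 13 were both above animals 11 and 14 in 15 of 27 genes, against 14.5% of all probe sets, and the reverse held in 0 genes, against 13.5%. Between the hearts with block, animal 8 was above animal 2 in 24 of 27 genes, against 49% of all probe sets, and in 9 of 9 fibrillar genes. The exceptions were COL4A4, COL4A6 and COL9A2. These orders were chosen after the values were seen, genes that vary together are not independent, and no test was made of them.

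The same orders were found with other scalings. Animal 12 was highest in 21 to 23 of the 27 genes and animal 8 was above animal 2 in 24 or 25 with the deposited signals, quantile normalization, other scaling factors and the authors' normalized columns. With the tested probe set nearest the 3' end in place of the brightest, the counts were 20 and 24. Over all probe sets the share with animal 8 above animal 2 depended on the scaling and was 79.7% on the deposited signals. The median deviation of the 27 genes from the intact mean was -0.17 in animal 2 and 0.33 in animal 8, against -0.23, 0.47, 0.11 and -0.30 in animals 11, 12, 13 and 14 (log2).

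**Figure D3:**
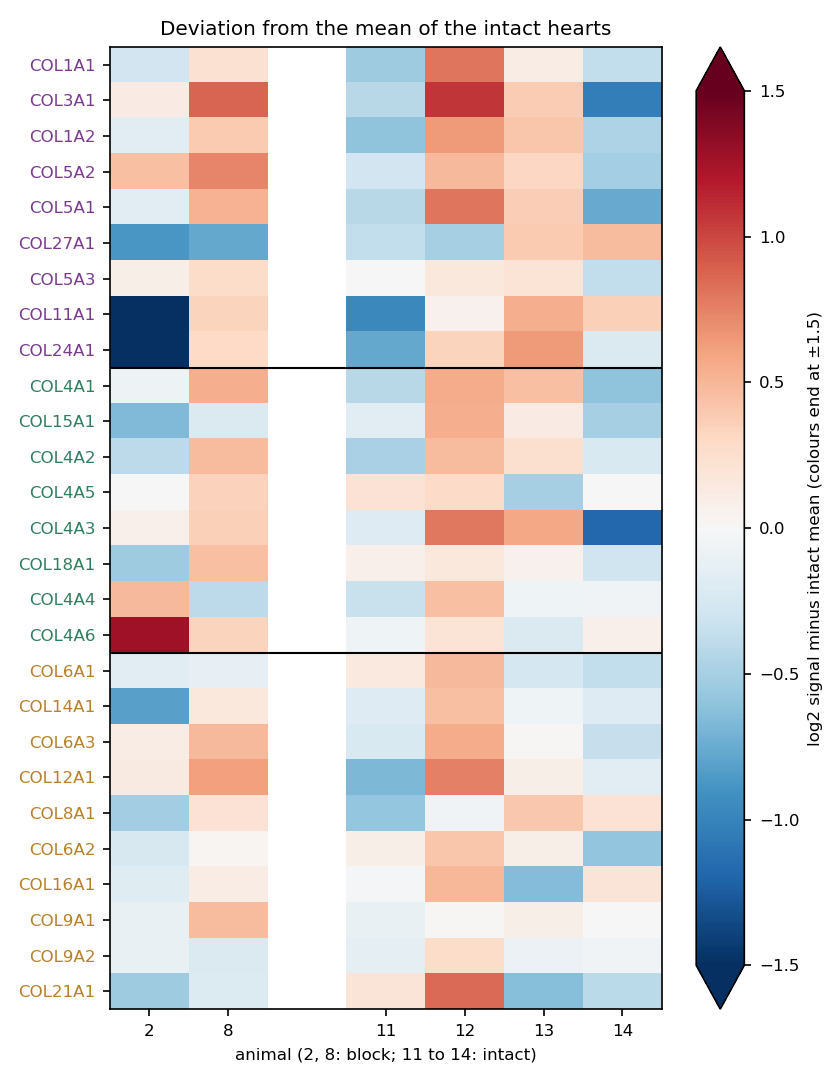
Deviation of each tested collagen gene from the mean of the intact hearts (log2 signal, color) in animals 2 and 8 (block) and 11 to 14 (intact), with lines between fibrillar, basement membrane and other genes. Animal 12 and animal 8 are above the intact mean in most rows, and the 2 darkest blue cells of animal 2 are the dim genes COL11A1 and COL24A1.

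Other probe sets of the same genes gave a partial check of these values. In 11 genes with more than 1 tested probe set on the same strand, 14 of 20 further probe sets had a log2 difference of the same sign as the brightest one. The further probe sets of COL1A1 were at -0.31 and -0.26, and that of COL1A2 at 0.65. Those of COL3A1 were at 0.57 and 1.10, and that of COL5A2 at 0.38. In COL8A1, 1 of 4 further probe sets had the sign of the brightest one (-0.15), and the 4 ran from -0.13 to 0.62. That of COL4A4 was at -0.35, against 0.048 for the brightest one. Those of COL5A1 were at -0.39 and 0.13, against 0.17. The COL3A1 probe set at 1.10 was dim, with 25.5 and 20.5 with block, against 11.1, 7.60, 11.1 and 13.6 in intact hearts. It had no Present call in intact hearts, so its level there is not known, and it is among the 14 counted. None of these probe sets passed the test. The probe set of COL12A1 with the lowest unadjusted p (0.0028, limma adjusted p = 0.351) lay upstream in the gene (chr4:71263042-71263556) and was dim, with 7.58 and 6.08 with block, against 18.2, 23.4, 20.3 and 22.9 in intact hearts. Its log2 difference of -1.64 had the opposite sign to that of the brightest probe set. It had no Present call with block and 3 in intact hearts, so its level with block is not known.

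Collagen chains are modified, folded, secreted and trimmed by a set of dedicated enzymes and chaperones, and 37 such genes, with collagen receptors, were followed. Of these, 36 were on the array and 29 were tested. None passed the adjusted threshold, and ITGB1 was the only one with an unadjusted p below 0.05 (higher), against 3.62% of all probe sets that were higher and 4.62% that were lower, so that this count was no larger than the share over the array. ITGB1, the common β chain of the collagen-binding integrins, had 4886 and 4839 with block, against 3918, 4070, 3358 and 3873 in intact hearts, with a log2 difference of 0.36 (SE 0.14, limma adjusted p = 0.562). The median log2 difference of the list was 0.12, with 18 genes above 0 and 11 below, and it was -0.054 without animal 8 and 0.0063 without animal 11.

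The largest positive differences of this list were in ADAMTS2, DDR2, P4HA1 and TLL1. ADAMTS2 cuts the amino-terminal propeptide of procollagens and had 46.1 and 107 with block, against 52.7, 63.5, 52.6 and 40.4 in intact hearts (log2 difference 0.44, limma adjusted p = 0.774). DDR2, a fibroblast receptor for fibrillar collagen, had 123 and 149 with block, against 158, 88.6, 102 and 70.9 in intact hearts (0.44, adjusted p = 0.7503). P4HA1, a catalytic subunit of the prolyl hydroxylase that makes the triple helix stable, had 251 and 259 with block, against 190, 229, 157 and 204 in intact hearts (0.40, adjusted p = 0.640). Of these, P4HA1 was the gene in which animals 2 and 8 both exceeded every intact heart. Among the other tested genes of the list this was also found in P3H1, CREB3L1 and ITGB1, against 8.61% of all probe sets tested. TLL1, a proteinase related to the enzyme that removes the carboxy-terminal propeptide, had a log2 difference of 0.40 (adjusted p = 0.867).

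The largest negative differences were in ITGA10, FKBP10, ITGA1 and PCOLCE, at -0.72, -0.49, -0.47 and -0.47 (limma adjusted p = 0.747, 0.737, 0.803 and 0.722). ITGA10 and ITGA1 are collagen-binding integrin chains, FKBP10 is a collagen chaperone of the endoplasmic reticulum, and PCOLCE enhances removal of the carboxy-terminal propeptide. ITGA10 had no Present call with block, so its level there is not known. PCOLCE had 131 and 290 with block, against 220, 298, 310 and 262 in intact hearts. SERPINH1, the collagen-specific chaperone HSP47, had 373 and 663 with block, against 394, 566, 685 and 376 in intact hearts (log2 difference 0.022, adjusted p = 0.989). SPARC, a matrix protein that binds collagen, had 1705 and 3059 with block, against 1412, 3350, 2553 and 1375 in intact hearts (0.18, adjusted p = 0.926). Both genes had animals 12 and 13 above animals 11 and 14 and animal 8 above animal 2, as the type I chains did, and both were singled out after their values were seen.

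Markers of the cell types of the ventricular wall were set beside the collagens. Of 10 fibroblast markers other than collagens, 9 were tested and TCF21 was Absent throughout. Their summed signal was 16578 and 21321 with block and lay between 15179 and 19207 in intact hearts. All 9 were higher in animal 8 than in animal 2, and 5 of the 9 were highest in animal 12 among the intact hearts. The median log2 difference of these markers was 0.034. Their spread between intact hearts was narrower than that of the collagens, with a median SD of 0.22.

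The 6 markers of activated fibroblasts summed to 1572 and 2182 with block and lay between 1079 and 1529 in intact hearts, and all 6 were higher in animal 8 than in animal 2. Of these, 3 had an unadjusted limma p below 0.05, all with higher values with block (FAP, ACTA2 and TAGLN), against 3.62% of all probe sets that were higher, and none passed the adjusted threshold. ACTA2 and TAGLN are also genes of smooth muscle, and they made up most of the sum on every array. FAP, a membrane protease of activated fibroblasts, had 57.1 and 77.0 with block, against 7.76, 16.9, 21.8 and 12.5 in intact hearts (log2 difference 2.27, limma adjusted p = 0.285). It was Present in animals 2 and 8 and in 2 intact hearts. POSTN, a matrix protein that activated fibroblasts secrete, had 68.3 and 203 with block, against 40.2, 75.8, 209 and 233 in intact hearts. CTHRC1 had 40.6 and 279 with block, against 138, 156, 107 and 42.7 in intact hearts. TNC had 17.0 and 24.0 with block, against 18.2, 28.6, 26.4 and 21.4 in intact hearts. In POSTN, CTHRC1 and TNC the groups overlapped.

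Of 9 markers of smooth muscle and pericytes, 8 were tested. They summed to 4645 and 5150 with block and lay between 4182 and 5535 in intact hearts, with a median log2 difference of -0.00072. At an unadjusted limma p below 0.05, CSPG4 was higher (63.4 and 67.7 with block, against 31.98, 52.4, 42.5 and 39.2 in intact hearts) and KCNJ8 was lower (130 and 240 with block, against 284, 239, 392 and 308 in intact hearts), and neither passed the adjusted threshold. Over all probe sets tested, 3.62% were higher and 4.62% lower at that unadjusted p. With 1 of the 8 markers each way, no conclusion about these cells was drawn. CNN1, which was Present on 1 array and not tested, had 124 and 174 with block, against 20.1, 65.2, 62.7 and 74.4 in intact hearts. It had no Present call in intact hearts, so its level there is not known.

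The 8 macrophage markers summed to 702 and 1336 with block and lay between 549 and 769 in intact hearts. Animal 8 was above every intact heart in this sum, while its median deviation over the collagens (0.33) was below that of animal 12 (0.47). Of the 8 markers, 7 had a log2 difference above 0 (median 0.46), against 49.6% of all probe sets. Only CD163 had an unadjusted limma p below 0.05 (0.011, adjusted p = 0.468), against 3.62% of all probe sets that were higher. The 8 endothelial markers summed to 3026 and 3611 with block and lay between 2987 and 3609 in intact hearts. The 10 cardiomyocyte markers ran the other way between the hearts with block. They summed to 111055 in animal 2 and 91000 in animal 8, and lay between 83231 and 96026 in intact hearts, and none of the 10 was higher in animal 8 than in animal 2. In animal 2 the collagens were thus lower than in animal 8, while the cardiomyocyte markers and the GAPDH ratio (5.05 against 3.05) were higher. The part of cell makeup and of RNA length in the collagen values was not tested.

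**Figure D4:**
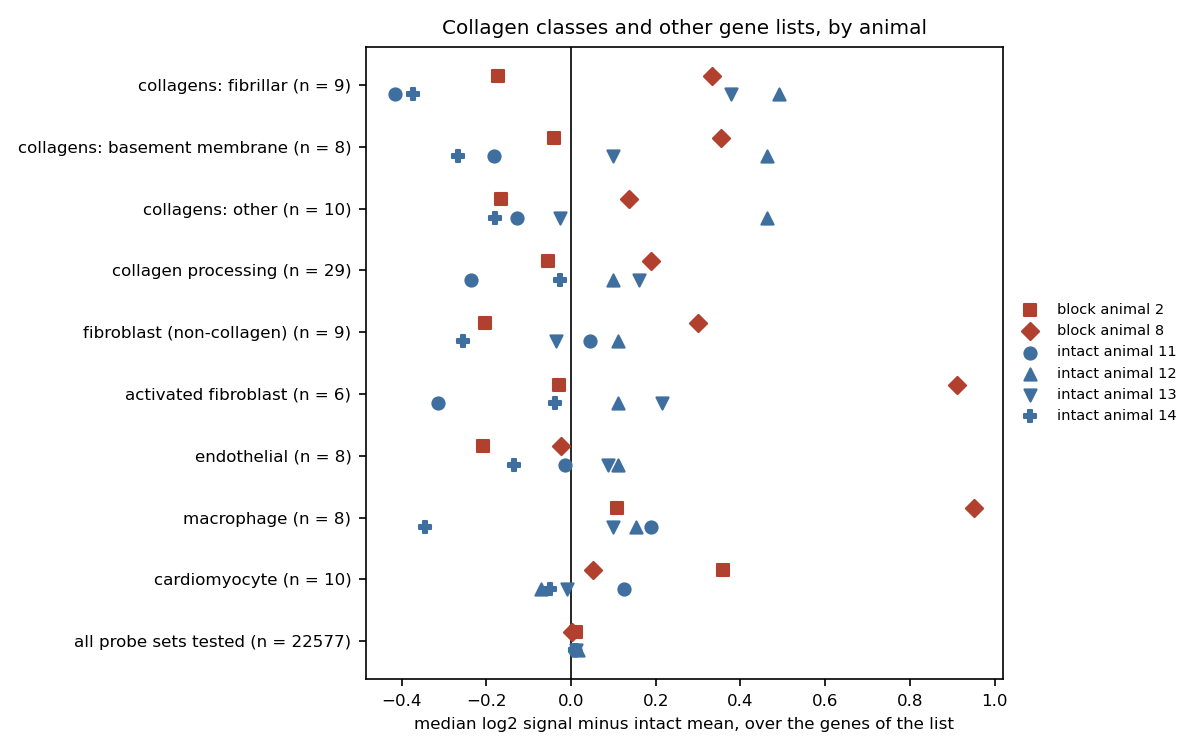
Median log2 signal minus the intact mean, over the genes of each list, for animals 2 and 8 (block, upper marks of a row) and animals 11 to 14 (intact, lower marks). The collagen classes spread widely between animals, with medians between -0.42 and 0.49 for fibrillar genes in intact hearts, and all probe sets tested lie near 0.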

How the data were processed

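RNA of 6 left ventricular specimens, 1 per animal, was amplified from its 3' end and hybridized to 1 array each. The authors computed MAS5 signals (version not given in the sources used here). The deposited table holds a signal (intensity, linear scale), a detection call, a detection p-value and the authors' normalized value (log2), which was rebuilt from the signals within 2.67e-05. A second deposited table holds the same intensities. Its 6 columns that count probe pairs were left aside. Probes were designed on rhesus sequence, and the number of arrays limits the precision.

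Each array was multiplied so that all shared 1 trimmed mean (2% trimmed), and signals were put on the log2 scale. Control probe sets were left out, and probe sets Present on at least 2 arrays were tested by lmFit and eBayes with a variance trend (limma 3.58.1, R 4.3.3). These steps were first run on simulated data with 200 changed probe sets. At the adjusted threshold they recovered 0% of 1.5-fold and 0% of 2-fold changes. They recovered 64.5% of 4-fold changes (14 false calls) and 83.5% of 8-fold changes (6 false calls). A fold is 2 to the power of the difference between the group means of log2 signals. Where a gene had no Present call in a group, its level there was taken as not known.

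Values on every array are given for the 4 brightest genes of each class, for 2-fold differences and for groups that do not overlap with Present calls throughout the higher group. Of the processing genes the rule names up to 4 with the largest difference each way. The members and lists were chosen with earlier results of these data known. Older names in the array's design (PLOD, LEPRE1, GLT25D1 and the like) were matched by hand to current symbols. Of the probe sets of collagen genes, 5 lay on another chromosome or strand than the gene, none of them the brightest of its gene. Of the collagen probe sets, 4 were assigned by their symbol, among them the brightest of COL4A4. Alternatives were other scalings, offsets, filters and moderation, other choices of probe set and leaving out each animal. Sets of genes were described by counts and medians and given no test.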

Additional observations from a re-analysis of the deposited data

Results flagged for a closer look

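In a screen of the 4 intact hearts over 41 measures (the tested collagen genes, the sums of the gene lists and the measures of array quality), 1 was flagged, COL14A1. Animal 12 had a scaled signal of 825, against 532 to 578 in the other intact hearts, and the gap made up 0.841 of the range, above the 95% critical value of Dixon's test for 4 samples. Chance alone marks about 1 in 20 such groups, and 1 flag among 41 measures is no more than that rate.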

How the results depend on the processing

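No collagen gene and no processing gene passed the adjusted threshold under any alternative run. Over all probe sets, 5 were called, and the count was 20 on the deposited signals without scaling, 8 with 32 added before log2, 10 with a floor of 100, and 0 with quantile normalization, the authors' normalized columns, no trend or array weights. The cause of these counts was not tested. Leaving out 1 animal gave 0 to 4.

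On the deposited signals without scaling, the median of all probe sets was -0.37. The median log2 difference on these signals was -0.33 for all collagen genes and -0.26 for fibrillar genes. It was -0.26 for basement membrane genes, -0.49 for other types and -0.25 for processing genes. The differences of COL1A2 (-0.26), COL4A1 (-0.13), COL4A2 (-0.33), COL4A5 (-0.20) and COL6A3 (-0.074) changed sign there. The mean of its tested probe sets turned COL12A1 to -0.084. The median of the collagen genes ran from -0.17 to 0.33 with 1 animal left out. Leaving out animals turned the sign in 9 of the 16 named genes. Their ranges were -0.29 to 0.24 for COL1A1, -0.17 to 0.39 for COL1A2, -0.076 to 0.55 for COL4A1, -0.39 to 0.47 for COL4A2, -0.0071 to 0.35 for COL4A5, -0.26 to 0.023 for COL6A1, -0.82 to 0.15 for COL14A1, -2.86 to 0.33 for COL11A1 and -2.36 to 0.30 for COL24A1.

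The GAPDH ratio differed by 0.76 (log2) and by 0.40 to 1.13 with 1 animal left out. With the floor of 100, no value could be had for COL4A6, COL11A1 and COL24A1. No paired analysis was possible because no animal number is shared between the groups.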
